A study of Homo sapiens with 8 samples.

Results

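A set of 40 extracellular matrix and collagen-modifying genes was followed across BEAS-2b cells given LY96 siRNA or control siRNA and stimulated with house dust mite (HDM) extract or PBS. The 40 genes, of 26485 in the deposited tables, were chosen by name, with earlier results of these data known. They are 11 collagen chains, 9 laminin and basement membrane genes, 11 other glycoproteins and 9 collagen-modifying enzymes. Because of that choice, their shares set beside those of all genes are descriptive. BEAS-2b (usually written BEAS-2B) is a human bronchial epithelial line immortalised with a virus, and HDM extract is an allergen mixture that the airway epithelium meets by inhalation. LY96 encodes MD-2, the partner with which the receptor TLR4 binds lipopolysaccharide. RNA was sequenced from 4 groups: LY96 siRNA plus HDM (3 libraries), control siRNA plus HDM (3), LY96 siRNA plus PBS (1) and control siRNA plus PBS (1). Cells of all 4 groups were kept in BEGM medium, were switched to BEBM medium 24 h before stimulation and were collected 24 h after it (HDM dose and siRNA timing: not given in the sources used here). No label tells whether replicate libraries stem from separate cultures. The p-values below then reflect library-to-library spread only, and that spread could be technical.

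The extracellular matrix is the protein network that cells secrete and attach to. Collagens are triple helices whose chains are hydroxylated and glycosylated inside the cell, by the prolyl and lysyl hydroxylases among others, and are crosslinked outside it by lysyl oxidases. An epithelium rests on a basement membrane of laminins, type IV collagen, nidogen and the heparan sulphate proteoglycans perlecan and agrin, and holds on to it through hemidesmosomes, integrins and anchoring fibrils. In the airway, a thickened matrix under the epithelium is a feature of asthma, and most of the fibrillar collagen there is made by mesenchymal cells.

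Expression is given in FPKM, a read measure per transcript length and library size that lets levels of genes be set side by side. The sum over all genes ranged from 329777 to 340328 FPKM per library, and read depth is unknown. LY96 was listed at 0 FPKM in all 8 libraries, so its depletion could not be checked from these values and the groups are named by their labels. All 8 epithelial markers reached 1 FPKM in at least 1 library, and under HDM they summed to 1176 to 1240 FPKM with LY96 siRNA and 1298 to 1344 FPKM with control siRNA. Under PBS they summed to 1359 FPKM with LY96 siRNA and 1347 FPKM with control siRNA. Of 8 fibroblast markers, PDGFRB and THY1 reached 1 FPKM and DCN, LUM and POSTN were at 0 FPKM throughout. The summed fibroblast level under HDM was 25.7 to 29.5 FPKM with LY96 siRNA and 22.6 to 24.4 FPKM with control siRNA, and under PBS 29.7 FPKM with LY96 siRNA and 28.3 FPKM with control siRNA. Under HDM THY1 was at 16.1 to 19.8 FPKM with LY96 siRNA and 12.3 to 13.4 FPKM with control siRNA, and PDGFRB at 9.39 to 10.3 FPKM with LY96 siRNA and 9.98 to 10.8 FPKM with control siRNA. Within the epithelial list CDH1 was at 35.8 to 41.6 FPKM with LY96 siRNA and 27.01 to 28.1 FPKM with control siRNA under HDM. KRT5 was also higher, at 431.9 to 446.7 FPKM with LY96 siRNA and 401.5 to 424.7 FPKM with control siRNA. EPCAM, KRT7, KRT8, KRT18, KRT19 and TP63 were lower in every LY96 siRNA HDM library than in any control siRNA HDM library. Leukocyte markers under HDM summed to 4.96 to 5.36 FPKM with LY96 siRNA and 2.80 to 3.53 FPKM with control siRNA, and to 3.22 FPKM with LY96 siRNA and 2.63 FPKM with control siRNA under PBS. Of those 6 genes CD68 alone reached 1 FPKM, with PTPRC and CD3E at 0 FPKM. Smooth muscle markers under HDM summed to 2.41 to 3.08 FPKM with LY96 siRNA and 3.46 to 3.995 FPKM with control siRNA, almost all of it ACTA2, and under PBS to 2.32 FPKM with LY96 siRNA and 2.74 FPKM with control siRNA. PECAM1 was at 0 FPKM, and none of 5 endothelial markers reached 1 FPKM.

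The 40 genes together made up 1351 to 1412 FPKM with LY96 siRNA and 1238 to 1275 FPKM with control siRNA under HDM. Under PBS they summed to 1372 FPKM with LY96 siRNA and 1227 FPKM with control siRNA. SPARC, a collagen-binding glycoprotein, and FSTL1, a secreted follistatin-like protein, had the highest levels, with means over the 8 libraries of 140.2 and 124 FPKM. THBS1, AGRN, BGN and FN1 came next, at means of 87, 82.4, 82.1 and 80.3 FPKM, and the last 3 of these 4 means lay closer together than the spread of BGN over the libraries. The most abundant collagen chains were COL6A1 and COL4A2, at means of 29.9 and 28.9 FPKM. COL1A2, VCAN and LOXL4 stayed under 1 FPKM in every library and were not tested. The other 37 genes reached a mean of 1 FPKM and were tested with all 12598 genes that did so in the 6 HDM libraries, or all 12604 that did so over 8 libraries.

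**Figure D1:**
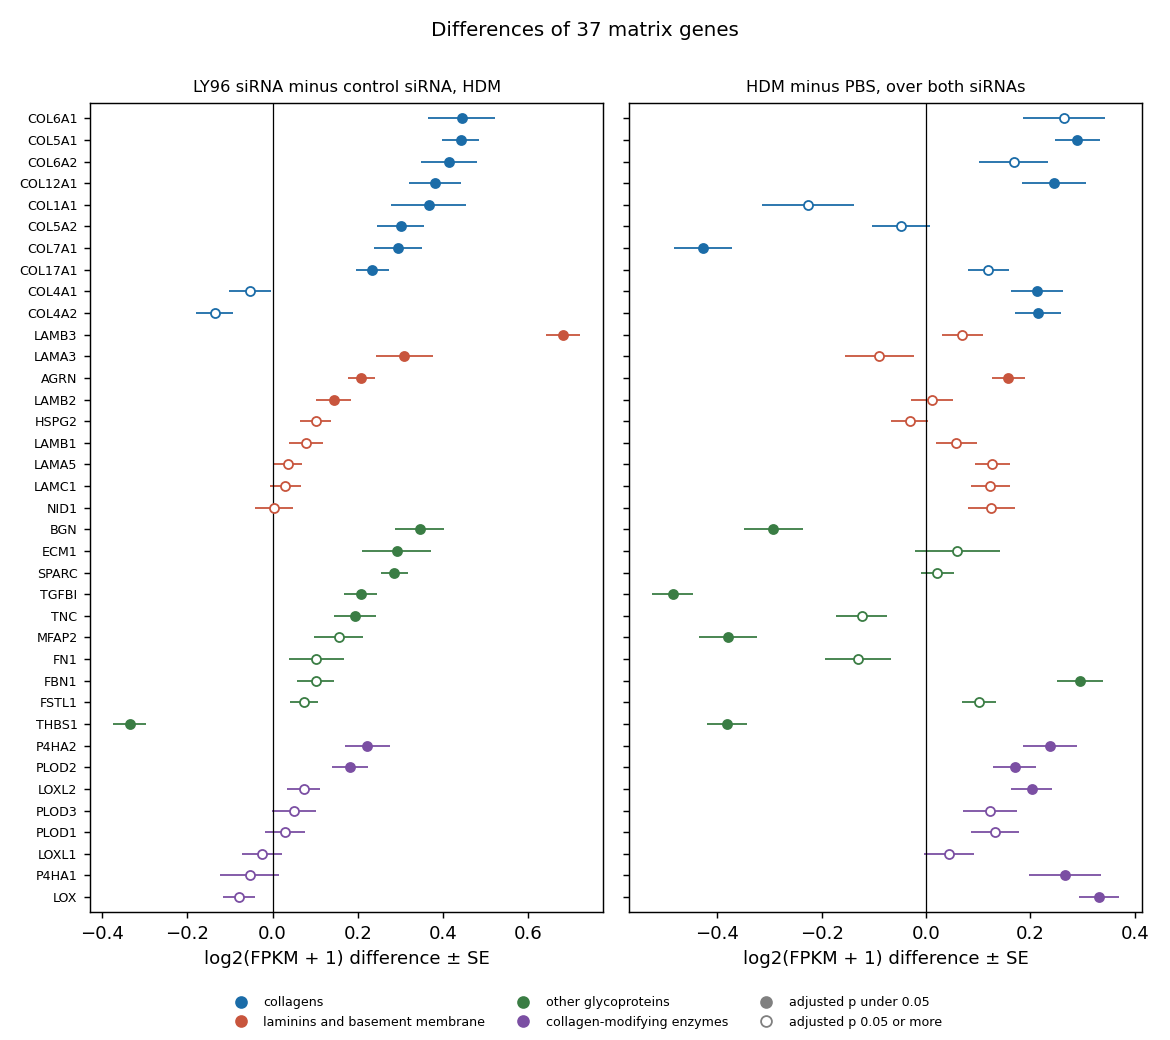
Difference in log2(FPKM + 1) with its SE (horizontal axis) for the 37 tested genes, ordered by class and then by the siRNA difference. The left panel is LY96 siRNA minus control siRNA under HDM and the right panel is HDM minus PBS averaged over both siRNAs; filled points have a limma adjusted p under 0.05, 20 on the left and 16 on the right.

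Under HDM, 19 of the 37 tested matrix genes were higher in cells with LY96 siRNA than in cells with control siRNA and 1, THBS1, was lower (limma on log2(FPKM + 1), Benjamini-Hochberg adjusted p under 0.05). Among all 12598 genes tested in this comparison, 15.6% were called, 6.68% higher and 8.92% lower. The 3 libraries of each siRNA did not overlap in 23 genes that were higher and 3 that were lower, THBS1, COL4A2 and LOX, where 15.2% of all genes were higher and 21.8% lower by that rule. The calls fell on 8 of 10 collagen chains, 4 of 9 laminin and basement membrane genes, 6 of 10 other glycoproteins and 2 of 8 collagen-modifying enzymes. The median difference was 0.16 in log2 over the 37 genes and -0.02 over all genes. Median-ratio scaling turned the split of all calls from 842 higher and 1124 lower into 1055 higher and 890 lower, while it left the matrix genes at 19 higher and 1 lower. In RNA from whole cultures, fewer cells of a type and less RNA per cell cannot be told apart.

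The largest difference was in LAMB3 (chromosome 1, 209614870 to 209652466, GRCh38), which encodes the beta chain of the laminin that anchors epithelial cells at hemidesmosomes. Under HDM, the condition of all values in the following paragraphs unless PBS is named, LAMB3 was at 20.5, 19.6 and 20.5 FPKM with LY96 siRNA and 11.9, 12.5 and 12.3 FPKM with control siRNA. No value of one group reached the other, and the ratio of the means was 1.65 (log2 difference 0.68 ± 0.04 SE, adjusted p = 4.71e-05). Under PBS it stood at 19 FPKM with LY96 siRNA and 11.7 FPKM with control siRNA, close to the HDM level of each siRNA. LAMA3, the alpha chain of the same laminin, was at 8.6, 10.02 and 9.81 FPKM with LY96 siRNA and 6.96, 7.9 and 7.49 FPKM with control siRNA (log2 difference 0.31 ± 0.07 SE, adjusted p = 0.0159). The LAMB3 to LAMA3 ratio of FPKM averaged 2.14 ± 0.217 with LY96 siRNA and 1.64 ± 0.0609 with control siRNA (SD, n = 3 each). Under PBS that ratio was 1.66 with LY96 siRNA and 1.67 with control siRNA, so in the single PBS pair both chains were higher by nearly the same factor. The ratio was not tested.

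The LAMB3 window below is shown because this gene had the largest difference. It is the 250 bases upstream of the farthest downstream of 3 starts that RefSeq lists for the gene (GRCh38.p14, chr1:209651375-209651624, minus strand). By the GENCODE v29 positions this window lies inside the gene, and 20 of its bases are exon. Capitals mark, in order, a CCAAT box read on the other strand (ATTGG), an AP-1 motif (TGANTCA) and a GC box (GGGCGG).
LAMB3: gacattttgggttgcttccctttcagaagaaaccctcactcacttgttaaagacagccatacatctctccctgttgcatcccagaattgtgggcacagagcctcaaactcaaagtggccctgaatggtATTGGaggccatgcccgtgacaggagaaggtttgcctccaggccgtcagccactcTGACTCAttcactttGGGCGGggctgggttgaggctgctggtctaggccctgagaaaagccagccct

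Such motifs are common letters, and each match is a description of the window. Both strands of the 250 bases upstream of each start were searched in 35116 RefSeq windows, 40 of them belonging to 34 of the 40 matrix genes (COL5A2, AGRN, COL1A2, COL6A1, LOXL2 and COL1A1 were not matched). CCAAT was found in 32.0% of all windows, GGGCGG in 42.6%, TATAAA in 10.7%, TGANTCA in 6.57%, the TEAD motif GGAATG in 11.9%, the ATF4 and C/EBP composite TGATGNAA in 3.14% and the kappaB consensus, which can overlap itself on the other strand, in 9.96%. Of the 34 matched genes, 10 had a window with CCAAT, 28 with GGGCGG, 5 with TATAAA, 4 with TGANTCA, 4 with GGAATG, 0 with TGATGNAA and 7 with the kappaB consensus. The 4 with TGANTCA were LAMB3, LAMA3, ECM1 and MFAP2.

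Among the other basement membrane genes, AGRN, which encodes the heparan sulphate proteoglycan agrin, was at 88.8, 90.1 and 93.4 FPKM with LY96 siRNA and 79.8, 78.9 and 76.6 FPKM with control siRNA (log2 difference 0.21 ± 0.03 SE, adjusted p = 0.00402). LAMB2, a laminin beta chain of other basement membranes, was at 44.5, 47.4 and 48.2 FPKM with LY96 siRNA and 43.5, 42.1 and 41 FPKM with control siRNA (log2 difference 0.14 ± 0.04 SE, adjusted p = 0.0437). The groups did not overlap for either gene. LAMB1 and LAMC1, the beta and gamma chains of a widespread laminin, were at 49.6, 52.9 and 51.3 FPKM with LY96 siRNA and 46.9, 50.5 and 48.1 FPKM with control siRNA for LAMB1, and at 46.5, 44.5 and 46.5 FPKM with LY96 siRNA and 43.6, 46.6 and 44.4 FPKM with control siRNA for LAMC1, and overlapped in both. LAMA5, LAMB1, LAMC1, NID1 and HSPG2, the perlecan gene, were not called, with log2 differences from 0.00 for NID1 to 0.10 for HSPG2.

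Both type V chains were higher with LY96 siRNA. COL5A1 and COL5A2 encode the chains of type V collagen, which sets the diameter of collagen fibrils. COL5A1 was at 15.7, 16.3 and 16.8 FPKM with LY96 siRNA and 11.8, 12 and 11.4 FPKM with control siRNA (log2 difference 0.44 ± 0.04 SE, adjusted p = 4.94e-04). COL5A2 was at 9.74, 9.43 and 10.005 FPKM with LY96 siRNA and 7.21, 8.29 and 7.66 FPKM with control siRNA (log2 difference 0.30 ± 0.06 SE, adjusted p = 0.00874). In both genes every LY96 siRNA HDM library lay above every control siRNA HDM library. The COL5A1 to COL5A2 ratio averaged 1.67 ± 0.0589 with LY96 siRNA and 1.52 ± 0.0964 with control siRNA under HDM (SD, n = 3 each), with overlapping values. Under PBS it was 1.40 with LY96 siRNA and 1.09 with control siRNA.

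COL6A1 and COL6A2, chains of the microfibrillar type VI collagen, were both higher. COL6A1 was at 33.1, 34.3 and 41.5 FPKM with LY96 siRNA and 26.6, 27 and 25.3 FPKM with control siRNA (log2 difference 0.44 ± 0.08 SE, adjusted p = 0.0100). COL6A2 was at 20.9, 22.2 and 25.6 FPKM with LY96 siRNA and 16.8, 16.6 and 17.3 FPKM with control siRNA (log2 difference 0.41 ± 0.07 SE, adjusted p = 0.00515). Replicate 3 with LY96 siRNA was the highest library for both chains, and without it the other LY96 siRNA libraries still lay above all 3 controls. Their ratio to each other, COL6A2 over COL6A1, stayed between 0.613 and 0.697 in all 8 libraries. COL6A3, which encodes the chain that completes the usual type VI molecule, had at most 0.139 FPKM in any library.

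COL12A1, a fibril-associated collagen, was at 4.33, 3.96 and 4.34 FPKM with LY96 siRNA and 2.93, 2.96 and 3.11 FPKM with control siRNA (log2 difference 0.38 ± 0.06 SE, adjusted p = 0.00464). COL1A1, the alpha1 chain of type I collagen, was at 7.27, 7.35 and 9.46 FPKM with LY96 siRNA and 6.1, 6.08 and 5.72 FPKM with control siRNA (log2 difference 0.37 ± 0.09 SE, adjusted p = 0.0269). Its partner COL1A2 was between 0.0917 and 0.198 FPKM in the 8 libraries, and COL1A1 was 36.8 to 72.7 times as high in FPKM.

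The collagens of the epithelial anchorage were higher too, COL7A1 by nearly as much as COL5A2 (0.30 in log2). COL7A1, the anchoring fibril collagen, was at 13.1, 13.2 and 14.9 FPKM with LY96 siRNA and 11.4, 11 and 10.5 FPKM with control siRNA (log2 difference 0.29 ± 0.06 SE, adjusted p = 0.0104). COL17A1, the transmembrane collagen of hemidesmosomes, was at 23.6, 22.6 and 24.2 FPKM with LY96 siRNA and 20.0, 20.1 and 19.3 FPKM with control siRNA (log2 difference 0.23 ± 0.04 SE, adjusted p = 0.00600). Neither pair of groups overlapped.

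The type IV chains of the basement membrane sheet did not follow the other collagens. COL4A1 was at 12.8, 12.8 and 13.9 FPKM with LY96 siRNA and 13.1, 13.6 and 14.3 FPKM with control siRNA (log2 difference -0.05 ± 0.05 SE, adjusted p = 0.50). COL4A2 was at 27.3, 28.5 and 29.8 FPKM with LY96 siRNA and 30.6, 32.8 and 31 FPKM with control siRNA (log2 difference -0.14 ± 0.04 SE, adjusted p = 0.0656). COL4A2 was lower in every LY96 siRNA library than in any control library, and COL4A1 overlapped. Both genes lie head to head on chromosome 13, and COL4A2 over COL4A1 stayed between 2.14 and 2.41 in all 8 libraries. Their RefSeq starts are 126 bases apart. Of that shared stretch, 30 bases (GRCh38.p14, chr13:110307167-110307196, plus strand) are shown because 1 window serves both genes, with the CCAAT box in capitals. In GENCODE v29 both genes extend over these 30 bases, all of them exon.
COL4A1 and COL4A2: gggccgagctccCCAATttgttggcgctgc

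**Figure D2:**
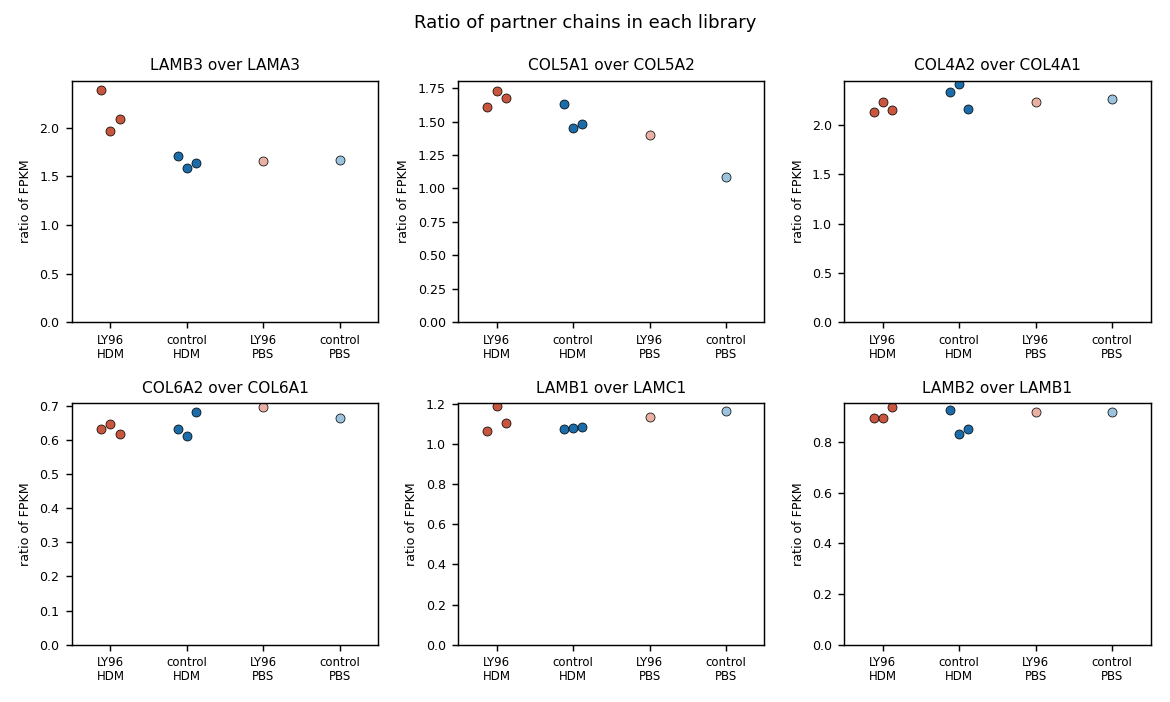
Ratio of FPKM of partner chains (vertical axis, from 0) in each of the 8 libraries, 1 point per library, with the 3 LY96 siRNA HDM and 3 control siRNA HDM libraries left and the single PBS libraries right. LAMB3 over LAMA3 separates the HDM groups, whereas the other 5 ratios overlap between them.

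Glycoproteins split into 5 higher and 1 lower. BGN, the small leucine-rich proteoglycan biglycan, was at 87.1, 93.6 and 80.3 FPKM with LY96 siRNA and 68.5, 71.2 and 65 FPKM with control siRNA (log2 difference 0.34 ± 0.06 SE, adjusted p = 0.00602). SPARC was at 150.4, 154 and 159.6 FPKM with LY96 siRNA and 124, 129 and 127 FPKM with control siRNA (log2 difference 0.29 ± 0.03 SE, adjusted p = 8.69e-04). TGFBI, a matrix adhesion protein first found as a gene induced by TGF-beta, was at 35.4, 34.6 and 33.7 FPKM with LY96 siRNA and 29.4, 31.2 and 28.9 FPKM with control siRNA (log2 difference 0.21 ± 0.04 SE, adjusted p = 0.0101). In all 3 genes the groups were apart, and BGN varied most among the LY96 siRNA libraries. TNC, the adhesion-modulating glycoprotein tenascin C, averaged 9.21 ± 0.321 FPKM with LY96 siRNA and 7.93 ± 0.325 FPKM with control siRNA (SD, n = 3 each, log2 difference 0.19 ± 0.05 SE, adjusted p = 0.0300). ECM1, a secreted matrix glycoprotein, averaged 4.95 ± 0.141 FPKM with LY96 siRNA and 3.88 ± 0.56 FPKM with control siRNA (SD, n = 3 each, log2 difference 0.29 ± 0.08 SE, adjusted p = 0.0426), and its control library replicate 1, at 4.53 FPKM, lay nearest the LY96 siRNA libraries.

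THBS1 (chromosome 15, 39581079 to 39599466, GRCh38), which encodes thrombospondin 1, a matricellular protein that can activate latent TGF-beta, went the other way. THBS1 was at 75.7, 70.4 and 68.6 FPKM with LY96 siRNA and 89.6, 90.9 and 90.8 FPKM with control siRNA (log2 difference -0.33 ± 0.04 SE, adjusted p = 0.00108). Every LY96 siRNA value was below every control value, and the 3 control values had an SD of 0.747 FPKM. FN1, FBN1, FSTL1 and MFAP2 were not called, with log2 differences from 0.07 for FSTL1 to 0.16 for MFAP2. The THBS1 window (RefSeq, GRCh38.p14, chr15:39580829-39581078, plus strand) is shown because it was the 1 gene that was lower. Capitals mark 4 GC boxes on either strand, 1 CCAAT box read on the other strand, which directly follows the last of them, and 1 TEAD motif.
THBS1: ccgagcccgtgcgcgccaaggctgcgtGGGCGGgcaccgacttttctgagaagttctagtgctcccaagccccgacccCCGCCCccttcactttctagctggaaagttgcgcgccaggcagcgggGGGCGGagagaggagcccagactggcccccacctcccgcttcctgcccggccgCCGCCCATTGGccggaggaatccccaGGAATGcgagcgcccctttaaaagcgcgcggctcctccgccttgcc

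Of the collagen-modifying enzymes, P4HA2 and PLOD2 were higher. P4HA2, an alpha subunit of collagen prolyl hydroxylase, was at 43.5, 41.1 and 47.8 FPKM with LY96 siRNA and 37.7, 36.8 and 38.3 FPKM with control siRNA (log2 difference 0.22 ± 0.05 SE, adjusted p = 0.0227). PLOD2, the lysyl hydroxylase of the collagen telopeptides, was at 45.4, 43.8 and 48.4 FPKM with LY96 siRNA and 40.3, 41.1 and 39.5 FPKM with control siRNA (log2 difference 0.18 ± 0.04 SE, adjusted p = 0.0202). The groups were apart for both genes. LOX, LOXL1, LOXL2, PLOD1, PLOD3 and P4HA1 were not called, with log2 differences from -0.08 for LOX to 0.07 for LOXL2.

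The call was kept under every alternative that tested the gene by 13 of the 20 genes: COL5A1, COL5A2, COL6A1, COL6A2, COL7A1, COL12A1, COL17A1, LAMB3, AGRN, SPARC, THBS1, TGFBI and BGN. Leaving out 1 library ended it for COL1A1 without control siRNA HDM replicate 1, 2 or 3 (adjusted p from 0.0658 to 0.0834), for LAMA3 without LY96 siRNA HDM replicate 2 or 3 or control siRNA HDM replicate 1 (adjusted p from 0.0504 to 0.0527) and for LAMB2 without LY96 siRNA HDM replicate 2 or 3 or control siRNA HDM replicate 1, 2 or 3 (adjusted p from 0.0559 to 0.129). The same held for TNC without LY96 siRNA HDM replicate 1 or 3 or control siRNA HDM replicate 1 or 2 (adjusted p from 0.0597 to 0.102) and for ECM1 without LY96 siRNA HDM replicate 1, 2 or 3 or control siRNA HDM replicate 2 or 3 (adjusted p from 0.0816 to 0.131), and further for PLOD2 without control siRNA HDM replicate 1 or 3 (adjusted p from 0.055 to 0.0683) and for P4HA2 without LY96 siRNA HDM replicate 1 or control siRNA HDM replicate 1, 2 or 3 (adjusted p from 0.0506 to 0.0783). Without the filter on low values COL1A1, LAMB2, TNC, ECM1, PLOD2 and P4HA2 missed the threshold. Without the trend and robust options COL1A1, LAMB2, ECM1, PLOD2 and P4HA2 did so. An additive model over all 8 libraries called 24 matrix genes, 22 higher and 2 lower. It added HSPG2 (adjusted p = 0.0275), FBN1 (0.0447) and MFAP2 (0.0291) as higher and COL4A2 (0.0279) as lower. Calls among all genes rose as well under this model, to 998 higher and 1484 lower from 842 and 1124. The share of FPKM from the ribosomal RNA genes RNA18S5 and RNA28S5 also differed with the siRNA. It was 1.03 to 1.31% with LY96 siRNA and 0.475 to 0.824% with control siRNA under HDM, and 0.826% with LY96 siRNA and 0.770% with control siRNA under PBS. Its part in the result, and that of the fibroblast, leukocyte, smooth muscle and epithelial sums above, was not tested.

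**Figure D3:**
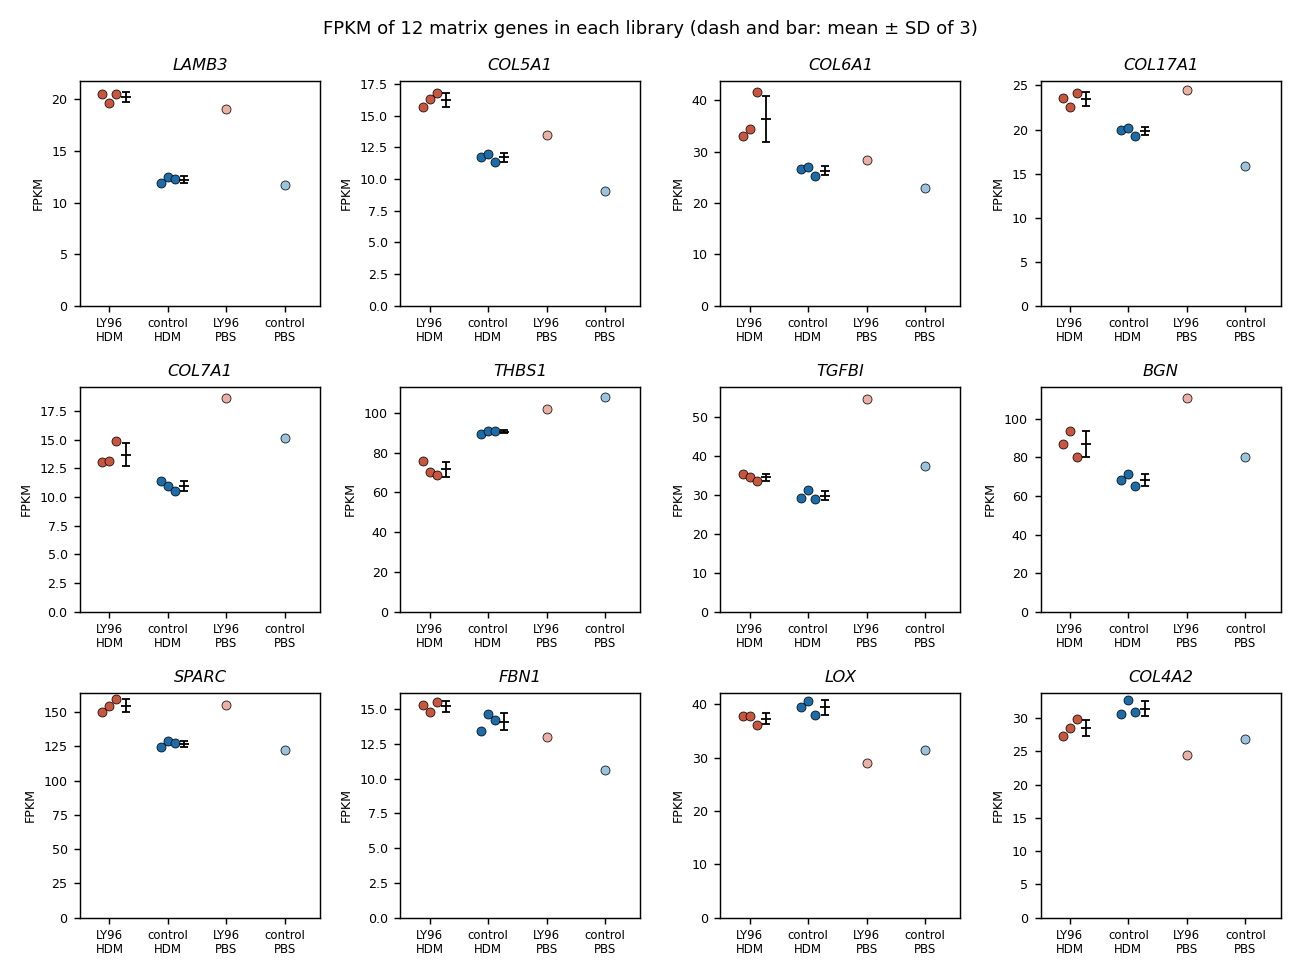
FPKM (vertical axis, from 0) of 12 matrix genes in each library, 1 point per library, with a dash and bar for mean ± SD of the 3 HDM libraries of each siRNA. LAMB3, COL5A1, COL6A1 and SPARC are higher with LY96 siRNA with HDM and with PBS, THBS1 is lower, and COL7A1, TGFBI and BGN are lower under HDM than under PBS with either siRNA.

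The 2 PBS libraries took no part in that comparison, and they give the siRNA difference once more in separate libraries, although with 1 library each there is no test. LY96 siRNA minus control siRNA had the same sign under PBS as under HDM in 36 of the 37 genes (97.3%), against 67.6% of all genes tested. The exception was LOXL2, with log2 -0.04 under PBS and 0.07 under HDM. All 19 genes called higher under HDM were higher in the LY96 siRNA PBS library than in the control siRNA PBS library, where 86.5% of all genes called higher were so. LAMA3 was at 11.5 FPKM with LY96 siRNA and 7.003 FPKM with control siRNA under PBS, COL17A1 at 24.5 FPKM with LY96 siRNA and 15.9 FPKM with control siRNA, and TGFBI at 54.7 FPKM with LY96 siRNA and 37.6 FPKM with control siRNA. In these 3 genes the PBS pair differed by more than the HDM groups did, and they are not the only such genes. The median over the 19 genes called higher was 0.33 in log2 under PBS and 0.29 under HDM. Over all genes called higher it was 0.15 under PBS and 0.25 under HDM. THBS1 was at 102 FPKM with LY96 siRNA and 108 FPKM with control siRNA, a smaller difference than under HDM. Whether the PBS and HDM libraries of an siRNA came from the same transfection is unknown here.

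**Figure D4:**
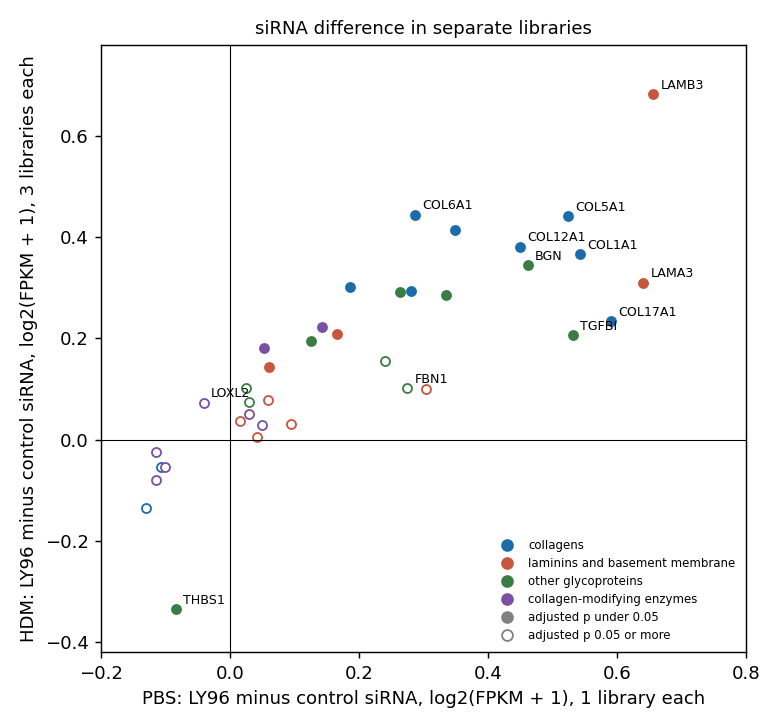
LY96 siRNA minus control siRNA in log2(FPKM + 1) for 37 matrix genes under PBS (horizontal axis, 1 library each) and under HDM (vertical axis, 3 libraries each); filled points were called under HDM. All but LOXL2 lie in the upper right or lower left field, and LAMB3 is the farthest out.

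HDM extract changed matrix genes in both directions. Over both siRNAs, 11 of 37 were higher with HDM than with PBS and 5 were lower, where 8.36% of all 12604 genes tested were called, 4.86% higher and 3.5% lower. With both siRNAs alike, every HDM library lay above the PBS library of its siRNA in 21 genes and below it in 7, where this held for 16% and 12.9% of all genes. The genes called higher were the type IV chains COL4A1 and COL4A2, COL5A1, COL12A1, AGRN, FBN1 and 5 of 8 collagen-modifying enzymes, LOX, LOXL2, PLOD2, P4HA1 and P4HA2. Those called lower were COL7A1 and 4 of 10 glycoproteins, THBS1, TGFBI, BGN and MFAP2. The median difference was 0.12 in log2 over the 37 genes and 0.01 over all genes. Each siRNA had 1 PBS library, so the spread in these tests comes from the HDM libraries alone, and the HDM libraries are the same ones as in the siRNA comparison.

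LOX, the lysyl oxidase that starts collagen and elastin crosslinks, was at 37.9, 37.8 and 36.1 FPKM with LY96 siRNA and 39.6, 40.6 and 38 FPKM with control siRNA, and under PBS at 29 FPKM with LY96 siRNA and 31.5 FPKM with control siRNA. All 6 HDM libraries lay above both PBS libraries (HDM minus PBS, log2 difference 0.33 ± 0.04 SE, adjusted p = 8.56e-04). LOXL2, a related oxidase, was at 31.9, 32.4 and 33 FPKM with LY96 siRNA and 29.4, 32 and 31 FPKM with control siRNA, and under PBS at 26.9 FPKM with LY96 siRNA and 27.7 FPKM with control siRNA (log2 difference 0.20 ± 0.04 SE, adjusted p = 0.0138). P4HA1, the other alpha subunit of collagen prolyl hydroxylase, was at 14.8, 14.8 and 17.3 FPKM with LY96 siRNA and 15.7, 17.6 and 15.5 FPKM with control siRNA, and under PBS at 12.6 FPKM with LY96 siRNA and 13.6 FPKM with control siRNA (log2 difference 0.27 ± 0.07 SE, adjusted p = 0.0498). P4HA2 stood at 36.1 FPKM with LY96 siRNA and 32.7 FPKM with control siRNA under PBS (log2 difference 0.24 ± 0.05 SE, adjusted p = 0.0244), and PLOD2 at 38.8 FPKM with LY96 siRNA and 37.4 FPKM with control siRNA (log2 difference 0.17 ± 0.04 SE, adjusted p = 0.0381), both below all 6 of their HDM values given above. All 8 tested enzymes had a positive difference, the smallest being 0.04 for LOXL1, which was not called, nor were PLOD1 (0.13) and PLOD3 (0.12).

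Among the collagens, COL4A1 stood at 11 FPKM with LY96 siRNA and 11.9 FPKM with control siRNA under PBS and COL4A2 at 24.5 FPKM with LY96 siRNA and 26.9 FPKM with control siRNA. All 6 HDM libraries were higher for both chains (log2 difference 0.21 ± 0.05 SE, adjusted p = 0.0324 for COL4A1, and 0.21 ± 0.04 SE, adjusted p = 0.0174 for COL4A2). COL5A1 was at 13.5 FPKM with LY96 siRNA and 9.09 FPKM with control siRNA under PBS (log2 difference 0.29 ± 0.04 SE, adjusted p = 0.00331) and COL12A1 at 3.5 FPKM with LY96 siRNA and 2.29 FPKM with control siRNA (log2 difference 0.25 ± 0.06 SE, adjusted p = 0.0417). Within each siRNA the HDM libraries of both genes lay above the PBS library. COL7A1 (chromosome 3, 48564073 to 48595267, GRCh38) went down, with 18.6 FPKM with LY96 siRNA and 15.2 FPKM with control siRNA under PBS and every HDM library below the PBS library of its siRNA (log2 difference -0.43 ± 0.06 SE, adjusted p = 0.00177). The COL7A1 window (RefSeq, GRCh38.p14, chr3:48595330-48595579, minus strand) is shown because it was the 1 collagen that was lower with HDM. Capitals mark 3 kappaB matches, of which 2 overlap, 1 TATA box read on the other strand and 3 GC boxes.
COL7A1: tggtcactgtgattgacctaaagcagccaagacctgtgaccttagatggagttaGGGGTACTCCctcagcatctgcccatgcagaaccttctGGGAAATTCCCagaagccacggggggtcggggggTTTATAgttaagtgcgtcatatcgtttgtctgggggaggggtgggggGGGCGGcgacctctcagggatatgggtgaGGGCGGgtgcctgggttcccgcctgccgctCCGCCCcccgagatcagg

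The glycoprotein FBN1 (chromosome 15, 48408306 to 48645849, GRCh38), fibrillin 1 of the microfibrils that carry elastin and latent TGF-beta complexes, was higher with HDM. FBN1 was at 15.3, 14.8 and 15.5 FPKM with LY96 siRNA and 13.4, 14.6 and 14.2 FPKM with control siRNA, and under PBS at 13 FPKM with LY96 siRNA and 10.6 FPKM with control siRNA (log2 difference 0.29 ± 0.04 SE, adjusted p = 0.0036). Its window (RefSeq, GRCh38.p14, chr15:48644971-48645220, minus strand) is shown as that of the 1 glycoprotein that was higher. By the GENCODE v29 positions this window lies inside the gene, with 0 exon bases. Of the motifs searched it holds 1 TEAD motif, in capitals.
FBN1: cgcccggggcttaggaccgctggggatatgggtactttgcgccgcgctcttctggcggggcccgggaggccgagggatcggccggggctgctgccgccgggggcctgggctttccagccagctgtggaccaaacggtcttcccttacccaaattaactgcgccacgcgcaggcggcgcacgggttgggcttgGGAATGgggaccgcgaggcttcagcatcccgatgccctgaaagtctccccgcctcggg

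TGFBI fell most among the 37 genes. It stood at 54.7 FPKM with LY96 siRNA and 37.6 FPKM with control siRNA under PBS, above every HDM library of its siRNA (log2 difference -0.49 ± 0.04 SE, adjusted p = 1.13e-04). THBS1 stood at 102 FPKM with LY96 siRNA and 108 FPKM with control siRNA under PBS (log2 difference -0.38 ± 0.04 SE, adjusted p = 4.40e-04), BGN at 111 FPKM with LY96 siRNA and 80.4 FPKM with control siRNA (log2 difference -0.29 ± 0.06 SE, adjusted p = 0.0151). MFAP2, a microfibril glycoprotein that binds fibrillin, was at 6.04, 6.02 and 6.72 FPKM with LY96 siRNA and 5.33, 5.71 and 5.51 FPKM with control siRNA, and under PBS at 8.72 FPKM with LY96 siRNA and 7.22 FPKM with control siRNA (log2 difference -0.38 ± 0.06 SE, adjusted p = 0.00332). In TGFBI, THBS1 and MFAP2 all 6 HDM values were below both PBS values, whereas BGN with LY96 siRNA and HDM reached above the control siRNA PBS library in 2 of 3 libraries. AGRN, at 80.04 FPKM with LY96 siRNA and 71.2 FPKM with control siRNA under PBS, was higher with HDM (log2 difference 0.16 ± 0.03 SE, adjusted p = 0.0175), and the other 8 laminin and basement membrane genes were not called.

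Of the 16 calls, 8 were kept under every alternative that tested them, those of COL5A1, COL7A1, THBS1, TGFBI, FBN1, MFAP2, LOX and LOXL2. Leaving out 1 library ended the call for COL4A1 without control siRNA HDM replicate 2 or 3 (adjusted p from 0.056 to 0.0652) and for COL12A1 without LY96 siRNA HDM replicate 1 or 3 or control siRNA HDM replicate 1, 2 or 3 (adjusted p from 0.0608 to 0.0834). It did so too for PLOD2 without LY96 siRNA HDM replicate 1 or control siRNA HDM replicate 1, 2 or 3 (adjusted p from 0.0573 to 0.0808), for P4HA1 without LY96 siRNA HDM replicate 1 or 2 or control siRNA HDM replicate 1, 2 or 3 (adjusted p from 0.0554 to 0.0761) and for P4HA2 without control siRNA HDM replicate 1 or 3 (adjusted p from 0.051 to 0.0533). Median-ratio scaling and quantile normalization ended the calls of COL12A1, PLOD2 and P4HA1 (adjusted p from 0.051 to 0.0872). COL4A2 and BGN missed the threshold without the low-value filter and without the trend and robust options, and AGRN without the trend and robust options. Without LY96 siRNA HDM replicate 3, COL6A1 was called higher (adjusted p = 0.0167) and COL1A1 (0.0131) and FN1 (0.0361) lower. Without LY96 siRNA HDM replicate 1, LAMA5 (0.0456) and COL6A1 (0.0482) were called higher.

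Within each siRNA there were fewer calls. With LY96 siRNA, LOX (log2 difference 0.35 ± 0.05 SE, adjusted p = 0.0059) and LOXL2 (0.26, adjusted p = 0.0307) were higher with HDM. Among all genes tested with this siRNA 4.9% were called, 2.91% higher and 1.98% lower. COL7A1, THBS1, TGFBI, BGN and MFAP2 were lower, by log2 differences from -0.65 for TGFBI to -0.35 for BGN. With control siRNA, COL5A1 (0.33), COL17A1 (0.30), FBN1 (0.38) and LOX (0.31) were higher, values in log2. Among all genes 2.28% were called, 1.55% higher and 0.738% lower. COL7A1 (-0.43), THBS1 (-0.26) and TGFBI (-0.32) were lower. By position alone, the 3 HDM libraries lay above the PBS library in 23 genes and below it in 10 with LY96 siRNA, where 33.4% and 27.7% of all genes did so, and in 24 and 9 genes with control siRNA, where 33.8% and 29.2% did so.

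With LY96 siRNA the calls of THBS1, TGFBI, MFAP2 and LOX were kept under every alternative. COL7A1 missed the threshold without the low-value filter (adjusted p = 0.0699) and without the trend and robust options (0.051). Leaving out 1 library ended the call for BGN without LY96 siRNA HDM replicate 1 or 3 or control siRNA HDM replicate 1, 2 or 3 (adjusted p from 0.0509 to 0.0885) and for LOXL2 without LY96 siRNA HDM replicate 2 or 3 or control siRNA HDM replicate 3 (adjusted p from 0.0526 to 0.0738). Calls were added for PLOD2 (0.0402) and P4HA2 (0.0282), both higher, without LY96 siRNA HDM replicate 2, and for COL1A1 (0.0168), lower, without LY96 siRNA HDM replicate 3. With control siRNA none of the 7 was kept throughout. Leaving out 1 library ended the call for COL5A1 without control siRNA HDM replicate 1 or 2 (adjusted p from 0.0662 to 0.0769), for COL7A1 without control siRNA HDM replicate 2 or 3 (adjusted p from 0.064 to 0.0678) and for COL17A1 without control siRNA HDM replicate 1 or 2 (adjusted p from 0.0726 to 0.0832). It also ended it for THBS1 without LY96 siRNA HDM replicate 2 or control siRNA HDM replicate 1, 2 or 3 (adjusted p from 0.0631 to 0.118), for TGFBI without control siRNA HDM replicate 1 or 3 (adjusted p from 0.0524 to 0.0539) and for LOX without control siRNA HDM replicate 1 or 2 (adjusted p from 0.0538 to 0.0565). Without the low-value filter, and likewise without the trend and robust options, FBN1 was the 1 call left. THBS1 also missed the threshold under quantile normalization (0.107) and with a pseudocount of 0.5 (0.0501).

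None of the 37 genes passed the test of the difference itself, the response to HDM with LY96 siRNA less that with control siRNA (limma, 0 of 37, where 0.0555% of all 12604 genes were called). At an unadjusted p under 0.05 there were 5, COL17A1, LAMA3, HSPG2, THBS1 and TGFBI, and 956 of all genes. All 5 differences were below 0, at log2 -0.36 for COL17A1, -0.33 for LAMA3, -0.20 for HSPG2, -0.25 for THBS1 and -0.32 for TGFBI, with adjusted p from 0.243 to 0.624. The largest median over a class was -0.07, in the glycoproteins.

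**Figure D5:**
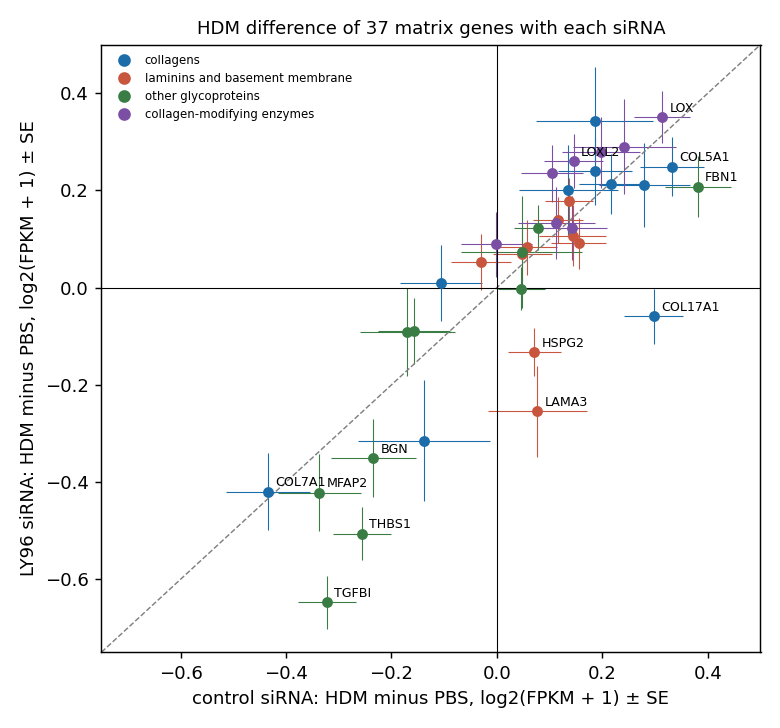
HDM minus PBS in log2(FPKM + 1) with SE for 37 matrix genes, with LY96 siRNA on the vertical axis and with control siRNA on the horizontal axis; the dashed line marks equal differences. Most genes lie near the line, and COL17A1, HSPG2 and LAMA3 lie below it, above 0 with control siRNA and below 0 with LY96 siRNA.

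Both comparisons are seen side by side in single genes, with the 6 HDM libraries shared between them. COL5A1, COL12A1, AGRN, PLOD2 and P4HA2 were higher with LY96 siRNA under HDM and higher with HDM. COL7A1, TGFBI and BGN were higher with LY96 siRNA under HDM but lower with HDM, and THBS1 was lower in both. LAMB3, with the largest siRNA difference, had an HDM difference of 0.07 ± 0.04 SE in log2 (adjusted p = 0.363). SPARC, with 0.29 for the siRNA, had 0.02 ± 0.03 SE for HDM (adjusted p = 0.757).

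Genes around the 40 were listed by function, also with earlier results of these data known. The counts below stand against 6.68% of all genes called higher and 8.92% lower with LY96 siRNA under HDM (all-gene median -0.02 in log2), and 4.86% higher and 3.5% lower with HDM over both siRNAs (all-gene median 0.01). Of 17 tested matrix receptors, 7 were higher and 0 lower with LY96 siRNA under HDM, with a median of 0.11 in log2. Among them the syndecan SDC4 differed by 0.22 ± 0.03 SE, adjusted p = 0.0034, the fibronectin receptor subunit ITGA5 by 0.27 ± 0.05 SE, adjusted p = 0.00600, and the vitronectin receptor subunit ITGB5 by 0.28 ± 0.05 SE, adjusted p = 0.00623. With HDM over both siRNAs 5 receptors were higher and 2 lower, with a median of 0.07. SDC4 was higher (0.58 ± 0.03 SE, adjusted p = 9.94e-06), as was ITGA5 (0.31 ± 0.05 SE, adjusted p = 0.00327), and ITGB5 was lower (-0.32 ± 0.05 SE, adjusted p = 0.00331).

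Of 15 tested genes of collagen folding and processing, 4 were higher and 0 lower with LY96 siRNA under HDM (median 0.09), led by the prolyl hydroxylase P3H3 (0.44 ± 0.04 SE, adjusted p = 4.97e-04), the procollagen protease BMP1 (0.23 ± 0.04 SE, adjusted p = 0.0087) and the collagen galactosyltransferase COLGALT1 (0.17 ± 0.04 SE, adjusted p = 0.0225). With HDM 3 were higher and 0 lower (median 0.06): PPIB (0.13), COLGALT1 (0.17) and P4HB (0.10). Of 10 further glycoproteins and elastic fibre genes, 4 were higher and 0 lower with LY96 siRNA (median 0.12), among them the fibrillin FBN2 (0.40 ± 0.06 SE, adjusted p = 0.00496) and the elastic fibre protein FBLN5 (0.41 ± 0.07 SE, adjusted p = 0.00774). With HDM 3 were higher and 1 lower (median -0.02), and FBLN5 was again higher (0.71 ± 0.07 SE, adjusted p = 5.28e-04), while the fibulin EFEMP1 was lower (-0.31 ± 0.04 SE, adjusted p = 0.00164).

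Of 9 further collagen chains, 1 was higher and 1 lower with LY96 siRNA under HDM (median -0.02): COL16A1 (0.26) and COL11A1 (-0.42). With 15.6% of all genes called and the same all-gene median, this list lay near all genes. With HDM 0 were higher and 3 lower (median 0.01), COL4A3 (-0.38), COL4A4 (-0.32) and COL18A1 (-0.24). The minor type IV chains COL4A3 and COL4A4 thus went opposite to COL4A1 and COL4A2, while COL4A5 and COL4A6 were not called. COL4A5 averaged 8.18 FPKM with LY96 siRNA and 9.16 FPKM with control siRNA under HDM. Under PBS it was at 7.84 FPKM with LY96 siRNA and 8.04 FPKM with control siRNA. Of 5 further laminin and basement membrane genes, the netrin NTN4 was higher with LY96 siRNA (0.32 ± 0.05 SE, adjusted p = 0.00657) and 0 were lower (median 0.07). With HDM LAMA4 (0.42) and FRAS1 (0.31) were higher and 0 lower (median 0.14).

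Of 16 tested TGF-beta ligands, receptors and SMAD targets, 2 were higher and 1 lower with LY96 siRNA under HDM (median 0.01), where 15.6% of all genes were called in either direction, so the share was near that of all genes. The latent TGF-beta binding protein LTBP4 (0.41 ± 0.04 SE, adjusted p = 3.51e-04) and the ligand TGFB1 (0.24 ± 0.05 SE, adjusted p = 0.0183) were higher, and the ligand TGFB2 was lower (-0.44 ± 0.05 SE, adjusted p = 0.00108). With HDM 0 were higher and 5 lower (median -0.11). PMEPA1 (-0.85 ± 0.09 SE, adjusted p = 5.32e-04) and SKIL (-0.43 ± 0.06 SE, adjusted p = 0.00266), both feedback inhibitors of the pathway, fell, as did LTBP2 (-0.29 ± 0.07 SE, adjusted p = 0.0349), a relative of the latent TGF-beta binding proteins. In the same comparison 11 of the 37 matrix genes were higher and 5 lower, COL7A1, THBS1, TGFBI, BGN and MFAP2. A link between the matrix genes and this pathway was not tested.

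By position in GENCODE v29, 18 of the 40 genes overlap another gene in the tables, and for 10 that gene reached 1 FPKM. COL4A1 and COL4A2 overlap each other, LAMA5 overlaps ADRM1, LAMB1 DLD, BGN HAUS7, LOX SRFBP1, LOXL1 LOXL1-AS1, LOXL2 ENTPD4, PLOD3 ZNHIT1, and P4HA2 PDLIM4, SLC22A4 and P4HA2-AS1. It is unknown here whether strand was used in counting, so reads of these pairs may not have been told apart. LOXL2 and ENTPD4 lie on the same strand, so counting by strand would not separate them. The values of these 10 genes are uncertain to that degree.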

How the data were processed

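RNA sequencing of 8 libraries of BEAS-2b cells was used. The submitters' processing notes name HISAT2 2.2.0 and the build hg38 (quantifying program and annotation: not given in the sources used here). The deposited values, 1 per gene and library, were read as FPKM because they are not whole numbers and their totals differ between libraries. Depth is therefore unknown, so counting error is not estimated. No 2 libraries held identical values.

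Differences were tested with limma 3.58.1 in R 4.3.3 on log2(FPKM + 1), using trended, robust moderation of the variances. Genes averaging 1 FPKM or more were tested, Benjamini-Hochberg adjusted over all genes tested, two-sided, at 0.05. The pseudocount of 1 understates changes of low genes. The siRNA effect under HDM used 6 libraries; the HDM effects and the interaction were contrasts of 4 group means over 8 libraries, and either fit left 4 residual degrees of freedom. The tests were tried on simulated data.

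The 40 genes, the other lists, the markers and the tests were chosen with earlier results of these data known. Genes given in full are those called in any comparison and both chains of paired chains; of each other list, up to 3 called genes by adjusted p. Before counting, 2 genes were left out of those lists and are not reported here. Alternatives were pseudocounts of 0.1 and 0.5, no filter or 5 FPKM, median-ratio scaling, quantile normalization, no trend or robust option, an additive model, a replicate block and each HDM library left out. Calls by groups that do not overlap were added after seeing the data. Promoter sequences are from RefSeq (GRCh38.p14) and gene positions from GENCODE v29.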

Additional observations from a re-analysis of the deposited data

Results flagged for a closer look

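COL17A1 and HSPG2 drew attention because the HDM libraries lay on opposite sides of the PBS library with the 2 siRNAs. COL17A1 was at 23.6, 22.6 and 24.2 FPKM with LY96 siRNA and HDM, all below the LY96 siRNA PBS library at 24.5 FPKM, and at 20.0, 20.1 and 19.3 FPKM with control siRNA and HDM, all above the control siRNA PBS library at 15.9 FPKM. The difference between the responses was -0.36 ± 0.08 SE in log2 (limma interaction, adjusted p = 0.243). HSPG2 was at 20.9, 20.3 and 20.1 FPKM with LY96 siRNA and HDM, all below 22.5 FPKM under PBS, and at 19.2, 19 and 18.7 FPKM with control siRNA and HDM, all above 18 FPKM under PBS. Its difference was -0.20 ± 0.07 SE in log2 (limma interaction, adjusted p = 0.552). Neither interaction passed the threshold, and each direction rests on 1 PBS library. Within 1 siRNA, only COL17A1 with control siRNA was called (0.30 ± 0.06 SE, limma adjusted p = 0.0276). With LY96 siRNA COL17A1 differed by -0.06 ± 0.06 SE (limma adjusted p = 0.681). HSPG2 differed by -0.13 ± 0.05 SE with LY96 siRNA (limma adjusted p = 0.209) and by 0.07 ± 0.05 SE with control siRNA (0.545).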

How the results depend on the processing

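Leaving out 1 HDM library gave 14 to 17 called matrix genes for the siRNA effect under HDM (20 with all libraries), 11 to 18 for HDM over both siRNAs (16), 5 to 8 for HDM with LY96 siRNA (7), 2 to 7 for HDM with control siRNA (7, but 2, 2 and 4 without control siRNA HDM replicate 1, 2 and 3) and 0 for the interaction (0). Without the low-value filter there were 9 matrix genes for HDM over both siRNAs, 4 with LY96 siRNA and 1 with control siRNA. Without the trend and robust options the counts were the same. Of all genes, in that order, the missing filter left 447 higher and 388 lower, 248 and 217, and 131 and 104. Without the trend and robust options these were 472 and 322, 274 and 158, and 133 and 47. Groups that did not overlap numbered 28 of 37 genes for HDM over both siRNAs, 33 with LY96 siRNA and 33 with control siRNA. This rule is easy to meet with 1 PBS library. Of all genes, 16% were higher and 12.9% lower by it over both siRNAs. With LY96 siRNA 33.4% and 27.7% were so, and with control siRNA 33.8% and 29.2%. Whether libraries with the same replicate number were paired is unknown here. Deviations of same-numbered libraries correlated at r = 0.0339, -0.0185 and -0.0222, and those of differently numbered ones at -0.0210 to 0.0353. With 3 HDM libraries per siRNA, such values cannot settle the pairing. A replicate block gave 18 called matrix genes for the siRNA effect and 13 for HDM over both siRNAs. It gave 6 with LY96 siRNA, 2 with control siRNA and 0 for the interaction. Calls the block ended were LAMB2 and ECM1 for the siRNA effect, COL12A1, PLOD2 and P4HA1 for HDM over both siRNAs, COL7A1 with LY96 siRNA, and COL5A1, COL7A1, COL17A1, THBS1 and FBN1 with control siRNA. No call changed direction under any alternative run, and the cause of the lost calls was not tested. Counting error cannot be given without depth.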
